A study of Arabidopsis thaliana with 5 samples.

Results

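EMB genes of Arabidopsis thaliana are named for the embryo-defective seeds that their mutants form. They were taken here as the nuclear protein-coding genes whose symbol starts with EMB in capitals and a digit. This rule gave 112 genes of 27444. Members were chosen by symbol, and the set as a whole was selected on its peak overlaps in the 4 peak lists used here, so every value below is a description and no test was made. The study mapped R-loops by DRIP (DNA:RNA immunoprecipitation) in 12-day-old seedlings of genotype Wild type and ecotype Columbia (Col-0). Nuclear DNA was cut with restriction enzymes, and hybrid-holding fragments were pulled down by S9.6, an antibody against DNA:RNA hybrids. Of 5 samples, the 2 DRIP replicates were analysed, while the 1 input sample and the 2 RNase H samples, whose hybrids lose their RNA to the enzyme, were not analysed here. Nothing but the labels tells the replicates apart, and their spread may be technical.

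In an R-loop a newly made RNA pairs with its template DNA strand and leaves the other strand single. R-loops form mostly where genes are transcribed, and helicases and RNase H enzymes remove them. EMB genes were collected from mutant screens in which seeds stopped growing at an embryo stage, so they share a mutant phenotype and not a protein family. Many encode housekeeping proteins of chloroplasts and mitochondria, of translation, of RNA processing and of chromosome replication. All samples came from seedlings and none from seeds, and no expression values were at hand to check the tissue. Seedlings hold many cell types, so more cells with a hybrid and more hybrids in each cell cannot be told apart.

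The 4 peak lists were DRIP replicate 1, DRIP replicate 2, and lists named w and c. The last 2 are read here as opposite DNA strands, although their strand definition is not given. They were both recorded under DRIP replicate 1, so they have no replicate of their own. Transcribed strands are not in the gene table used, so gene ends are named by their lower or higher coordinate. The lists held 47291, 39888, 34493 and 34069 peaks in that order. They give no read totals, so the depth of the libraries is unknown. A peak's fold is the authors' ratio of signal at its summit to local background, and the fold of a gene is the highest among the peaks that overlap it by at least 1 bp. Folds rank peaks within a list, and whether lists share a scale is unknown, so their means over replicates are descriptive.

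Most EMB genes carried DRIP peaks. In replicate 1, 101 of the 112 EMB genes had a peak, which is 90.2%, beside 67.3% of all 27444 protein-coding genes. In replicate 2, 96 had a peak, which is 85.7%, beside 62% of all genes. The mean over replicates was 87.9% ± 3.16 (SD, n = 2) for EMB genes and 64.7% ± 3.73 for all genes. The same 96 genes had peaks in both replicates, so 85.7% of EMB genes did, beside 60.6% of all genes. Only 5 had a peak in replicate 1 alone (4.46%, against 6.74% of all genes) and 0 had one in replicate 2 alone (1.47% of all genes). The remaining 11 EMB genes had no DRIP peak, a share of 9.82% beside 31.2% of all genes.

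EMB genes are longer than most genes, and a longer gene offers more bases for a peak to touch. Their median length was 2989 bp, against 2078 bp over all genes, and they ran from 420 bp in EMB2743 to 14915 bp in EMB3142. An expected share was therefore formed from the share of all genes in the same length bin, with 20 bins of equal gene number. For the 112 lengths it came to 69.4% with a peak in both replicates, or 77.7 genes, which left the observed 96 genes 16.3 percentage points higher. Against genes that carry any symbol at all, as every EMB gene does, the expected share was 69.6%. Below 1.5 kb, 9 of 13 EMB genes had peaks in both replicates (69.2%, against 41.4% of all genes of that size). From 1.5 to 2.5 kb the count was 24 of 27 (88.9% against 62.4%), and from 2.5 to 4 kb it was 29 of 33 (87.9% against 72.6%). From 4 to 6 kb it was 22 of 26 (84.6% against 76.8%), and at 6 kb or more 12 of 13 (92.3% against 85.2%). The gap was thus wider among short than among long genes, with 13 genes at either end of the range. With 85.2% of all genes at 6 kb or more already holding such peaks, little room was left for a gap there. Lengths were not matched within these 5 classes. By chromosome, from 1 to 5, the counts were 21 of 23, 19 of 21, 14 of 17, 15 of 19 and 27 of 32, beside 60.3%, 59.8%, 61.5%, 61.1% and 60.2% of all their genes.

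**Figure D1:**
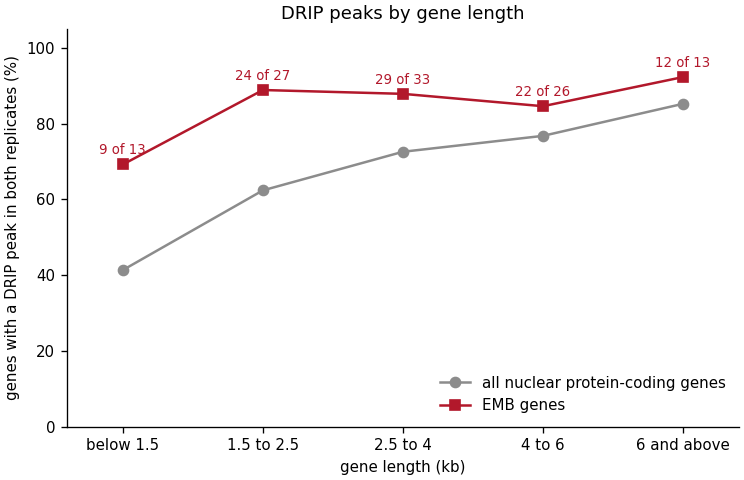
Share of genes with a DRIP peak in both replicates (%, y axis) in 5 classes of gene length (kb, x axis). Red squares are the EMB genes, with their counts, and grey circles all nuclear protein-coding genes: the red points lie above the grey in each class, from 69.2% against 41.4% below 1.5 kb to 92.3% against 85.2% at 6 kb or more.

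A peak in w, c or both lay on 109 EMB genes (97.3%, against 79.0% of all genes and 86.7% expected for length). Each strand list alone reached fewer members than DRIP replicate 1 (101) or replicate 2 (96). A w peak lay on 85 EMB genes (75.9%, against 54.9% of all genes and 63.8% expected for length). A c peak lay on 75 (67.0%, against 54.8% of all genes and 64.0% expected). The c share was thus close to that of genes of the same length, while the w share was 12.1 percentage points above it. Both lists touched 51 members, where 46.1 were expected and 30.7% of all genes were touched. A w peak alone lay on 34 members (25.4 expected; 24.2% of all genes), and a c peak alone on 24 (25.6 expected; 24.1% of all genes). The 96 members with DRIP peaks in both replicates each carried a w or a c peak, as did 99.9% of the 16623 genes with DRIP peaks in both replicates, so this was general. Of the members, 50 had both, 26 w only and 20 c only. Of the 11 without a DRIP peak, 6 had a w peak, 2 had a c peak and 3 had neither. Over all protein-coding genes, 8569 had no DRIP peak, and 5670 of these had no w or c peak either.

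EMB25 had the highest fold by the smaller of its replicate values. It encodes ISE2, an RNA helicase of the chloroplast needed for organelle RNA processing. Its fold was 7.75 in replicate 1, 6.73 in replicate 2, 9.73 in w and 6.21 in c, and the replicate mean was 7.24 ± 0.72 (SD, n = 2). It stood 62nd among the 16623 protein-coding genes with peaks in both replicates. The strongest peak, at chromosome 1, 26393508 to 26394345 in replicate 1 (TAIR10), ran across the higher-coordinate end of the gene and touched no other annotated gene. Either replicate had 3 further peaks inside the gene, with folds of at most 3.80. At the higher end the DRIP peak was matched by a w peak of 857 bp and a c peak of 370 bp, while the peak that starts 1098 bp from the lower end was matched by a c peak alone.

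EMB3135 was the member with most of its length under peaks. The gene of 1652 bp was covered over 80.8% ± 0.30 of its bases (SD, n = 2). Its fold was 6.62 in replicate 1, 6.13 in replicate 2, 8.99 in w and 8.74 in c. In either replicate 2 peaks lay on it, at chromosome 5, 3831632 to 3832524 and 3832713 to 3833153 in replicate 1. The c peak covered the first of these along most of its length, the w list had a peak at its lower end and another over the second DRIP peak, so both strands were represented along the gene. In all, 9 members had at least 50% of their bases covered in both replicates (8.04%, against 5.77% of all genes and 3.59% expected for length). The others were EMB3131, EMB3113, EMB3114, EMB3119, EMB1674, EMB3120, EMB3123 and EMB3143, some of which were picked out after their values were seen.

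EMB1006 encodes a pentatricopeptide repeat (PPR) protein, a member of the family that binds organelle transcripts and guides their editing, splicing or cutting. Its fold was 7.80 in replicate 1 and 5.99 in replicate 2, a mean of 6.89 ± 1.28 and the largest gap between replicates among the 96 members, and 7.49 in w and 7.76 in c. Replicate 1 had a single peak of 1299 bp (chromosome 5, 20459447 to 20460745), where replicate 2 had 2 peaks of 158 and 1029 bp. The w and c peaks, of 937 and 1143 bp, overlapped inside the gene. EMB1691 encodes the homologue of METTL14, a subunit of the complex that methylates adenosines in messenger RNA. Its fold was 5.90 in replicate 1, 5.94 in replicate 2, 2.51 in w and 7.04 in c. The DRIP and c peaks shared the same place at the higher end, at chromosome 4, 6251068 to 6252353 in replicate 1, while the weak w peak lay at the lower end and also touched another gene.

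EMB3003 encodes the E2 subunit of the plastid pyruvate dehydrogenase, which makes acetyl-CoA for fatty acid synthesis. Its fold was 5.68 in replicate 1, 5.72 in replicate 2, 7.37 in w and 6.96 in c. EMB3131, another PPR gene, had 5.98, 5.68, 9.27 and 8.15 in the same order. In both genes the w and c values were of like size. In EMB3131 the c peak held the lower end and the w peak began further in, under the wide DRIP peak, and ran on across the second DRIP peak. The smaller of the w and c folds was highest in EMB3135, EMB3131, EMB1006, EMB3003 and EMB2083, in that order. EMB2083 encodes FtsHi2, a protease-like protein of the chloroplast envelope, and had folds of 5.27, 5.86, 6.48 and 6.66, the w value from a peak with its summit outside the gene.

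The next 4 genes by fold had a single strand list each. EMB2777, for a protein of the complex that processes the small ribosomal RNA, had 5.58 in replicate 1, 6.13 in replicate 2 and 7.61 in w. EMB2279, a PPR gene, had 5.50, 5.63 and 6.65 in w. EMB2453, the PPR gene PPR5, had 5.34, 5.76 and 9.49 in w. None of these 3 had a c peak, and none had a peak that touched another gene. EMB2247, for a valyl-tRNA synthetase, had 5.42 in replicate 1, 6.03 in replicate 2 and 8.52 in c, with no w peak. Its strongest peak, at chromosome 5, 5485047 to 5485532 in replicate 1, ran beyond the lower end of the gene and touched another gene, so it cannot be given to EMB2247 alone. A fold of at least 5 in both replicates was found in 16 EMB genes (14.3%, against 6.04% of all genes and 7.12% expected for length).

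**Figure D2:**
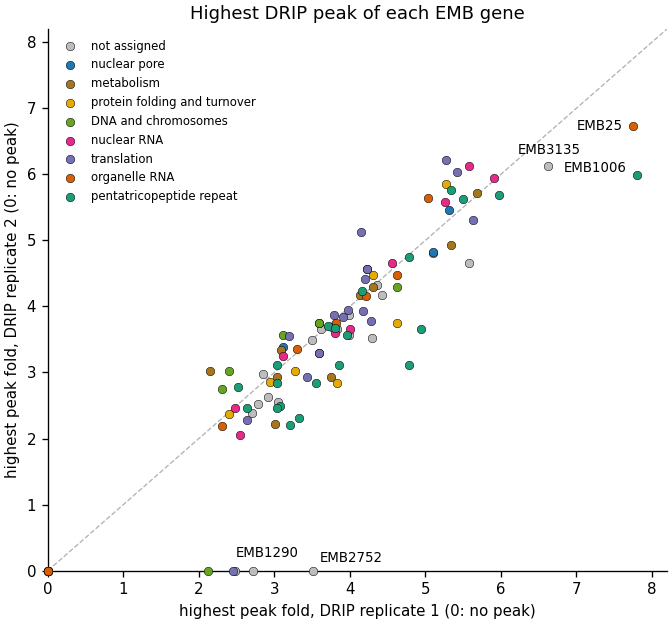
Highest peak fold (authors' ratio of summit signal to local background) of each EMB gene in DRIP replicate 1 (x axis) and replicate 2 (y axis). Each point is 1 gene coloured by the role of its product, the dashed line marks equal folds, and genes with no peak sit at 0: the 96 genes with peaks in both lie along the line, with EMB25, EMB1006 and EMB3135 at the top, and 5 genes lie on the x axis, 4 of them between 2 and 3 and EMB2752 at 3.51.

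Over the 96 genes the folds ran together in the replicates. Pearson's r was 0.903 across these genes (0.888 across the 16623 genes), a description of libraries in which genes share depth and are not independent. The median difference between replicates was 0.29, and 61 of the 96 genes were higher in replicate 1, as were 10295 of the 16623 genes. The median of the replicate means was 3.77, in a range from 2.25 to 7.24, against 3.72 over all genes with peaks in both replicates. A mean of at least 5 was reached by 18 members (18.8%, against 12.5%). EMB genes thus had peaks more often, while the middle of their folds stayed near that of other genes: taken per replicate, the median fold was 3.74 ± 0.11 (SD, n = 2), against 3.69 ± 0.05 expected for length.

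A mean of 1.69 ± 0.20 peaks lay on an EMB gene (SD over the 2 replicates), against 1.48 ± 0.17 expected for length and 1.14 ± 0.12 over all genes. Per kb of gene the order turned, with 0.448 ± 0.054 peaks on EMB genes and 0.476 ± 0.050 on all genes, with members lower in each replicate, at 0.486 against 0.512 and 0.410 against 0.441. The all-gene value was not matched on length. Peaks covered 21.0% ± 2.13 of an EMB gene on average, against 14.9% ± 1.07 expected for length. When all bases were pooled, which gives long genes more weight, the values were 16.3% ± 1.46 and 15.2% ± 1.08 for all genes. At least 2 peaks in both replicates lay on 52 members (46.4%, against 26.3% of all genes and 36.7% expected). At least 3 lay on 16 (14.3%, 8.29% of all genes and 14.5% expected), and at least 4 on 2 (1.79%, 2.3% of all genes and 5.09% expected). The count therefore exceeded expectation for at least 2 peaks and not for at least 3 or 4. In replicate 1, 39 members had 1 peak, 34 had 2, 17 had 3 and 9 had 4, while EMB2771 had 5 and EMB2794 had 6. The number was equal in both replicates in 77 members, higher in replicate 1 in 28 and higher in replicate 2 in 7. Over all 27444 genes these counts were 20109, 5576 and 1759, so more peaks in replicate 1 was a trait of the lists at large.

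EMB2794, a PPR gene of 3030 bp, had the most peaks, with 6 in replicate 1 and 3 in replicate 2. Its folds were 4.16 and 4.23, with 5.01 in w and 4.48 in c. The 5 c peaks and 3 w peaks divided the DRIP peaks between them: in replicate 1 the 2 DRIP peaks nearest the lower end had a c peak only, the next a w peak only, the next again a c peak only, and the last 2 had both. EMB2771, for APC1 of the complex that drives cells out of mitosis, had 5 and 3 peaks along 14733 bp, the last of them starting 5750 bp from the lower end in replicate 1. Its strongest peak, next to the lower end, also touched another gene. Its folds were 4.62 in replicate 1, 4.30 in replicate 2, 3.54 in w and 5.63 in c. EMB2654, a PPR gene, had 4 peaks in either replicate, with folds of 4.79 and 3.11. EMB1135, the FORGETTER1 gene that acts with chromatin remodellers in heat stress memory, had 4 and 3 peaks with folds of 3.59 and 3.75. The longest member, EMB3142, for the nuclear pore protein NUP205, had 4 and 2 peaks and folds of 3.11 and 3.38, below the middle of the members.

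**Figure D3:**
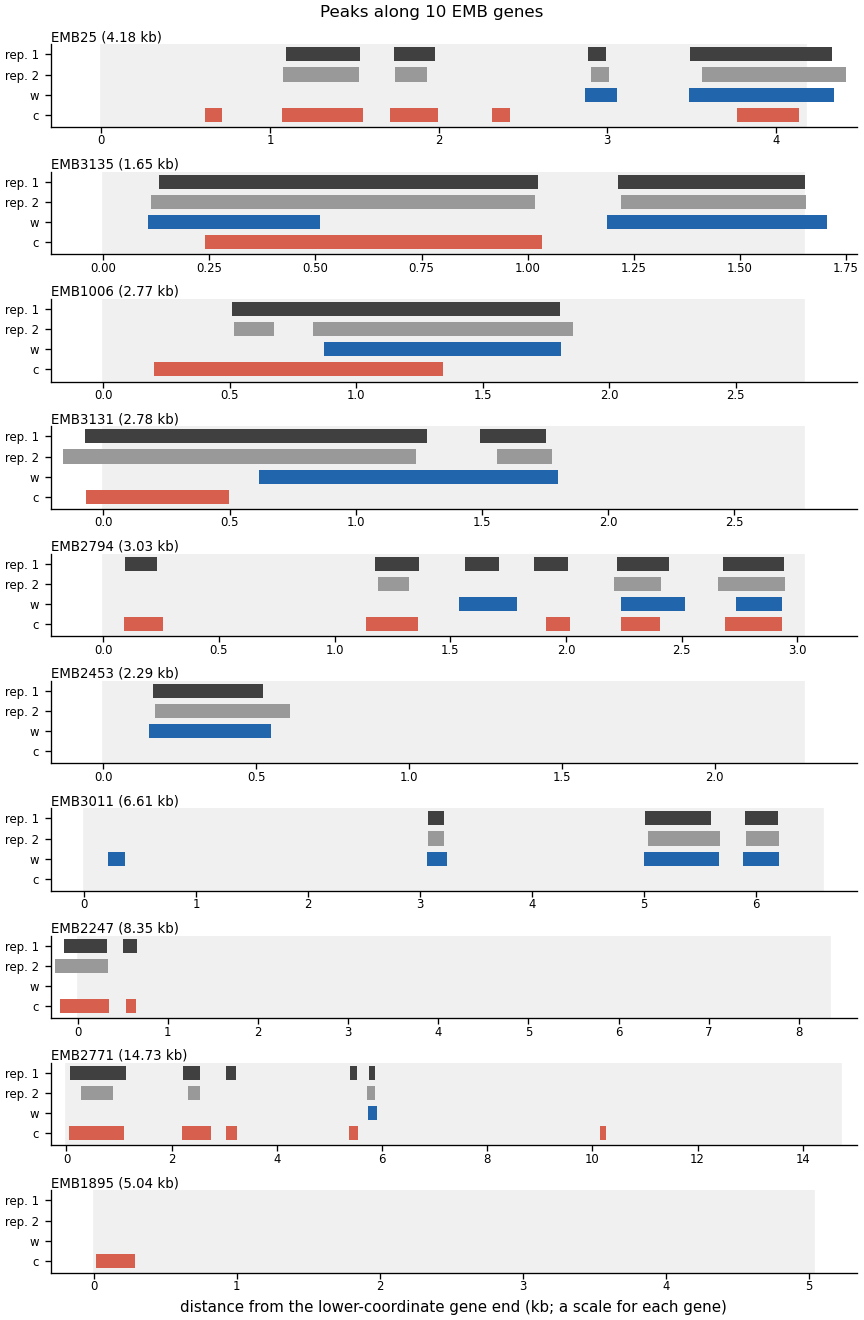
Peaks of the 4 lists (black and grey, DRIP replicates 1 and 2; blue, w; red, c) along 10 EMB genes, chosen after their values were seen, with the distance from the lower-coordinate gene end in kb on the x axis and the gene shaded. The w and c peaks share the DRIP peaks of EMB25, EMB3135 and EMB2794 between them, EMB2453 and EMB3011 have w peaks only, EMB2247 has c peaks only at its lower end, and EMB1895 has a c peak but no DRIP peak.

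The members' peaks numbered 205 in replicate 1, 173 in replicate 2, 146 in w and 150 in c. Their median widths were 257, 293, 261.5 and 286 bp, close to the 254.5, 286, 269 and 270 bp of peaks on any protein-coding gene. Peaks of 1 kb or more made up 6.83% of the members' peaks in replicate 1 and 6.36% in replicate 2, against 3.66% and 3.60% of all genic peaks. In c they numbered 14 of 150 (9.33%, against 3.80%), and in w 4 of 146 (2.74%, against 3.68%). Wide peaks thus exceeded the genic share in c and not in w. These counts are small, and genic peaks were not matched on gene length. The widest, of 2574 bp in replicate 1, lay on EMB2083 and touched another gene. Of the 205 peaks in replicate 1, 167 overlapped a replicate 2 peak (81.5%, against 81.2% of genic peaks), and 169 of the 173 in replicate 2 overlapped a replicate 1 peak (97.7%, against 95.4%). Those 167 replicated peaks overlapped a w peak only in 68 cases (40.7%, against 44.1% of replicated peaks on all genes). They overlapped a c peak only in 70 (41.9%, against 43.9%) and both in 29. The number that overlapped neither was 0, and on all genes it was 0.32%, so this was general. Peaks holding both strands made up 17.4% of them, against 11.7% of replicated peaks on all genes.

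Along the gene, DRIP peaks covered both ends of EMB genes more than their middle. In the 99 members of at least 1.5 kb, peaks covered 21.6% ± 1.55 of the 500 bp inside the lower end (SD, n = 2; 17.1% ± 1.02 expected for length) and 23.2% ± 1.72 of the 500 bp inside the higher end (16.7% ± 0.88 expected). The middle was covered over 19.0% ± 1.38 per gene, against 14.3% ± 1.13 expected. The excess over genes of the same length was therefore present at the ends and in the middle. Just outside the genes it was smaller, with 11.8% ± 0.49 in the 500 bp below (10.4% ± 0.41 expected) and 13.0% ± 0.19 in the 500 bp above (10.7% ± 0.33 expected). Per gene, the log2 ratio of ends to middle was 0.24 in members in either replicate, against 0.25 ± 0.03 expected for length, so the ends led the middle by about as much as in genes of the same length. With the bases of all middles pooled, which gives long genes more weight, the middle of members was at 13.5% ± 1.18. The pooled log2 ratio was then 0.73 ± 0.02, against 0.30 ± 0.03 over all genes of at least 1.5 kb, which were not matched on length. With the gene cut into 3 equal parts, from the lower coordinate up, peak summits inside the members numbered 64, 62 and 65 in replicate 1 and 50, 51 and 60 in replicate 2, so they were spread over all parts.

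The strand lists leaned to opposite ends. The w list covered 8.67% of the lower 500 bp and 20.6% of the higher 500 bp, and the c list covered 23.0% and 13.7%. The log2 ratio of lower to higher end was -1.25 for w and 0.75 for c in members, and -1.02 and 1.05 over all genes of at least 1.5 kb. Members and all genes thus leaned the same way. The widest gap to genes of the same length was in the c list at the higher end, where 13.7% of bases were covered, against 8.02% expected, and where 30 of 99 members were touched (30.3%, against 20.1% expected). In the 62 such members that no other gene overlaps, the c list covered 14.9% there. The w list at the lower end was near expectation, at 8.67% against 8.18%. In the 51 members with both lists, the summit of the strongest w peak had the higher coordinate in 39 (76.5%, against 75.2% of 8430 such genes), so the order was close to that of genes at large. The strongest w and c peaks overlapped in 7 of the 51 (13.7%, against 12.6% of the 8430) and lay apart in 44, with a median gap of 829.5 bp against 654 bp over all such genes, which were not matched on length.

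**Figure D4:**
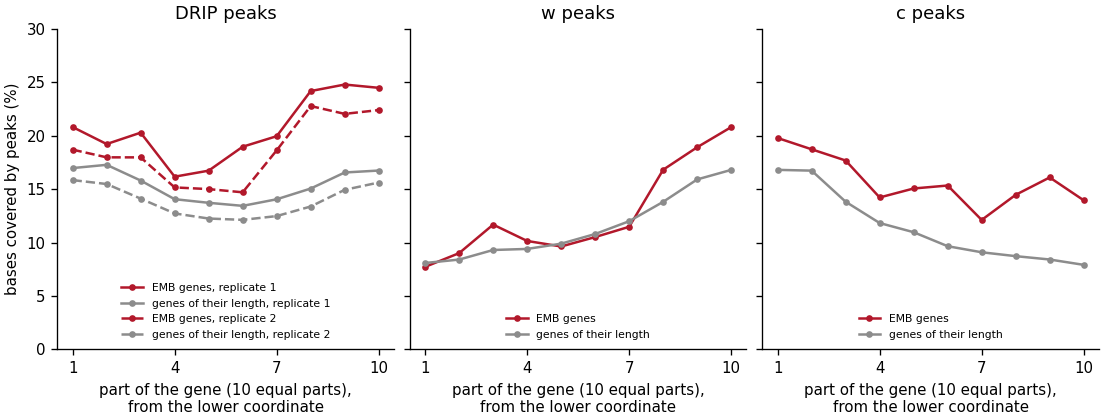
Mean share of bases covered by peaks (%, y axis) in each of 10 equal parts of the gene from its lower to its higher coordinate (x axis), for DRIP (replicate 1 solid, replicate 2 dashed), w and c peaks. Red lines are the 99 EMB genes of at least 1.5 kb and grey lines genes of the same length: in DRIP the red lines lie above the grey in every part, in w the widest gaps are in the last 3 parts (20.8% against 16.8% in the last), and in c the widest gap is in part 9 (16.1% against 8.41%).

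Neighbouring genes share peaks, and EMB genes often overlap another annotated gene. This was so for 44 of the 112 (39.3%, against 28.3% of all genes and 30.3% expected for length), through 45 overlaps with protein-coding genes, 9 with long noncoding RNA genes and 1 with a small nucleolar RNA gene. Peaks in both replicates lay on 38 of these 44 (86.4%, against 64.7% of all overlapped genes and 70.1% of those of the same length). They lay on 58 of the 68 that no gene overlaps (85.3%, against 59.0% of all such genes and 69.6% of those of the same length). Of the members' peaks, 23 of 205 in replicate 1 (11.2%) and 18 of 173 in replicate 2 (10.4%) also touched another gene. When peaks that touch another gene were left out everywhere, 77.7% of EMB genes still had a peak in both replicates, 13.8 percentage points above the expectation formed in the same way. In EMB2369, for a leucyl-tRNA synthetase, the strongest summit lay outside the gene, beyond its higher end, and its folds of 5.63 in replicate 1 and 5.30 in replicate 2 therefore belong to the flank as much as to the gene.

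By the role of their products, members were placed in 8 classes and a remainder of 24 genes with no class. All 21 PPR genes had a DRIP peak in both replicates, where 14.6 were expected for length. They carried a mean of 2.29 peaks in replicate 1 and 1.95 in replicate 2, against 1.52 and 1.31 expected, and their replicate-mean folds ran from 2.55 to 6.89 with a median of 3.71. The PPR genes therefore had more peaks and not higher folds, and 12 of them had w and c peaks, 5 w only and 4 c only. Without the PPR genes, the members' share in both replicates was 13.1 percentage points above expectation. PPR genes form a large family of related sequences, and how reads that match several places were handled is not given in the sources used here.

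Genes for other proteins of organelle RNA had peaks in both replicates in 7 of 8 cases (5.58 expected). EMB25, described above, led them. EMB3114, for an mTERF protein, which acts on organelle nucleic acids, had folds of 5.03 and 5.64, and all 3 mTERF genes had peaks in both replicates (1.87 expected). EMB3108, for the chloroplast RNA helicase RH22, had 4.63 and 4.48, and EMB1865, for a CRM-domain protein of intron splicing, had 4.21 and 4.16. The exception was EMB2730, for the organellar exoribonuclease RNR1, which had no DRIP peak.

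Translation genes had peaks in both replicates in 16 of 18 cases (11.9 expected). All 5 genes for tRNA synthetases, which load amino acids onto tRNAs, were among them (3.74 expected), with EMB2247 and EMB2369 highest. EMB3113, for the plastid ribosomal protein S5, had folds of 5.28 and 6.21, and EMB1080, for a cytosolic ribosomal protein S11, had 4.23 and 4.57. Among ribosomal proteins, 4 of 5 plastid genes (2.81 expected) and 2 of 3 cytosolic genes (1.71 expected) had such peaks, too few to read against the expectation. Genes of nuclear RNA processing were at 10 of 12 (8.66 expected). Besides EMB1691 and EMB2777 they included EMB3011, for the splicing helicase PRP16, with folds of 5.26 and 5.58, and EMB2762, for the ribosome assembly factor NOC4, with 4.56 and 4.65. These 2 differed in strand, since EMB3011 had w at 9.34 with no c peak and EMB2762 had c at 8.42 with no w peak.

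Genes of DNA and chromosomes were the named class that did not exceed its expectation, with 6 of 8 (6.32 expected). EMB2771 had the highest folds, followed by EMB1135 and EMB2773, the cohesin loader SCC2, both at 3.59 in replicate 1 and 3.75 in replicate 2. EMB2656, for the condensin subunit CAP-G, had 3.11 and 3.57. Both members for replication factor C, which loads the sliding clamp at replication forks, lacked a peak in at least 1 replicate (1.49 expected with peaks in both): EMB2775 (RFC3) had no DRIP peak and EMB1968 (RFC4) had 2.12 in replicate 1 only. Protein folding and turnover genes had peaks in all 7 cases (5.24 expected), among them EMB2083, EMB1241 for the chloroplast co-chaperone GrpE at 4.31 and 4.48, and EMB3144 for FtsHi4 at 3.27 and 3.02.

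Metabolic genes had peaks in 9 of 11 cases (7.35 expected). After EMB3003 came EMB3119, for ribose 5-phosphate isomerase of the Calvin cycle, with folds of 5.34 and 4.94, EMB3127, for an enzyme of folate metabolism, with 4.31 and 4.30, and EMB1144, for chorismate synthase of the aromatic amino acid pathway, with 4.14 and 4.17. The strongest EMB3119 peak of either replicate also touched another gene. All 3 nuclear pore genes had peaks (2.42 expected). EMB2766 (NUP62) had 5.31 and 5.45, EMB3012 (GP210) had 5.10 and 4.82, and EMB3142 is given above. The strongest EMB2766 peak of either replicate touched another gene as well. Members with no class stood at 17 of 24 (15.6 expected), 70.8% against 64.9%, and EMB3135 belongs to them. With 3 to 24 genes in a class, a single gene moves these shares by several percentage points.

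**Figure D5:**
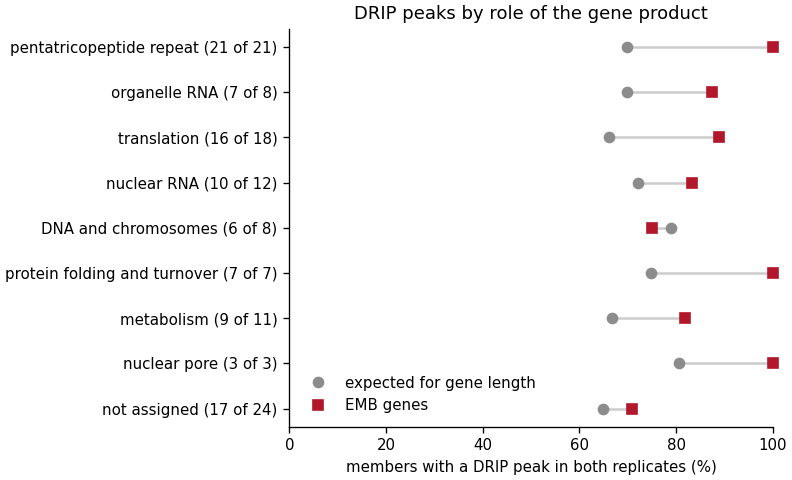
Share of EMB genes with a DRIP peak in both replicates (%, x axis) by role of the gene product (y axis, with counts). Red squares are the EMB genes and grey circles the share expected for their lengths: PPR, protein folding and nuclear pore genes stand at 100%, and DNA and chromosome genes, at 75.0%, lie below the 79.0% expected.

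Some members had a strong peak on a single strand. Besides EMB2453 and EMB3011, the highest w folds without a c peak were those of EMB2271 at 8.78 and EMB2753 at 8.40. EMB2753 encodes an auxiliary subunit of the NatA complex, which acetylates nascent proteins, and its replicate folds were 4.63 and 3.75. The EMB2271 peak also overlapped another gene and had its summit outside EMB2271. In EMB2753 the strongest w peak and the replicate 2 peak touched another gene as well. Besides EMB2247 and EMB2762, the highest c folds without a w peak were those of EMB506 at 7.11 and EMB2001, for a GTP-binding protein, at 6.52. The replicate folds were 3.04 and 2.56 in EMB506 and 3.59 and 3.29 in EMB2001. Whether they share a scale with c is unknown: over all genes with a peak, the median fold was 4.93 in c, 3.67 in replicate 1 and 3.58 in replicate 2.

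The 11 members without a DRIP peak included long genes. EMB2729, named for a branching enzyme of carbohydrate metabolism, measured 7296 bp and had a w peak of fold 2.85 as its only signal. EMB2423 (5295 bp) had a w peak of 2.51, EMB1895 (5038 bp) a c peak of 3.85, EMB2730 (4920 bp) a w peak of 2.95 and EMB2775 (3731 bp) a w peak of 3.21, which covers 0.19% of the gene and has its summit outside it. These single peaks were weak beside the median of 4.27 for members' w peaks and of 4.31 for c peaks. EMB2743, the shortest member, had no peak in any list, and neither had EMB2816 and EMB1687, for the small RNA-processing proteins LSM7 and POP5, which are named after their values were seen. These 3 made up 2.68% of members, against 20.7% of all genes and 13.1% expected for length.

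The 5 members with a peak in replicate 1 alone had low folds. EMB2752 had 3.51, EMB1290 had 2.71 and EMB3006 had 2.47. EMB3136 and EMB1968, named after their values were seen, had 2.45 and 2.12. The strongest summit of EMB2752 lay outside the gene. All 5 stood below 3.82, the median replicate 1 fold of the 101 members with a peak there. Each carried a w or c peak, beside 79.0% of all genes, in lists recorded under that same replicate. No such share is given for all genes with a peak in replicate 1 alone.

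Other genes named for defects of seed or embryo gave a mixed picture, by counts alone. Symbols with emb in lower case and a digit, which the rule for members left out, marked 48 genes, of which 38 had a DRIP peak in both replicates (33.6 expected for length). Genes with an EMB name only as a synonym had peaks in 69 of 96 cases (69.2 expected), which is at expectation. Genes named PDE, for pigment defects of the embryo, were at 12 of 14 (9.37 expected), MEE, for maternal effect embryo arrest, at 28 of 44 (28.8 expected), EDA, for arrest of the embryo sac, at 19 of 27 (17.4 expected) and TTN, for titan seeds, at 5 of 6 (4.37 expected). Embryo patterning genes, mostly regulators and signalling proteins, were at 8 of 16 (11.2 expected). The synonym list shares 2 genes with MEE, 1 with TTN and 4 with the patterning genes. No difference between these lists was tested.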

How the data were processed

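DRIP peak lists of 2 replicates of 12-day-old seedlings, and w and c lists recorded under replicate 1, were used as deposited. Per the submitters' processing notes, CASAVA, BWA 0.7.12, TAIR10 and MACS2 were used. Control library, parameters, pooling and strand definition were not given in the sources used here. The deposited fold values are the authors' ratio of summit signal to local background. The −log10 p-value and −log10 q-value of each peak are the authors' own, and each list's smallest −log10 q-value lies between 1.30 and 1.34, so each peak passed a q-value of 0.05. The deposited score column and the other column, which holds the offset of the summit from the peak's start, are the authors' as well. Of these only the fold, the q-value and the offset entered the analysis. Peak lists give no depth, so no interval that needs it is given.

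Gene positions and symbols are those of RefSeq's TAIR10.1 table, which updates TAIR10. The join was checked with peaks moved by up to 1000 bp to either side, 50 bp at a time: on every chromosome and in both replicates, the overlap with protein-coding genes was largest at 0 bp. Only peak coordinates are printed, counted from 1. Overlap of at least 1 bp assigned peaks to genes, with Python 3.11.15 and pandas 2.3.3. Expected values weight 20 length bins of all nuclear protein-coding genes by the members' lengths. SD is over the 2 replicates. The scripts were tested on simulated data.

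The members and lists were chosen with earlier results of these data known. Named genes follow a rule: the 10 highest smaller-of-replicates folds, the 5 with most peaks, the longest 5 without a DRIP peak, the 3 highest with a peak in 1 replicate, the 4 highest on w or c alone, the 5 highest on both, the longest and shortest member, and up to 4 per role class. Role classes were assigned by hand, since the table names no products and the planned keywords could not be applied. Strand of the gene and sequence were not used.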

Additional observations from a re-analysis of the deposited data

How the results depend on the processing

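The difference from the share expected for length and the log2 ratios kept their sign in every alternative run. Shares and peaks per gene have no sign, so they could not reverse. The share of EMB genes with peaks in both replicates, 85.7%, was 61.6% with the upper 50% of each list by fold, 73.2% at a −log10 q-value of at least 5, 79.3% with the 256 genes that have EMB or emb as symbol or synonym, 77.7% with peaks that touch no other gene (chosen after seeing the data), and 85.7% to 90.2% with 1 replicate. The distance from the share expected for length, 16.3 percentage points, was 14.1 to 15.1 with 1 replicate, 25.1 without length bins, 17.6 by summits, 11.5 with the upper 50% by fold and 8.82 with those 256 genes. With alternatives chosen after seeing the data it was 14.2 with lower-case emb symbols added, 8.73 with synonyms added but no lower-case symbols (79.3% in both replicates), 13.8 with peaks that touch no other gene and 13.1 without PPR genes. Peaks per gene, 1.69, were 0.92 and 1.31 with the upper 50% and the higher q-value. The upper 50% gave 53.6% for w, 53.6% for c and 83.0% for either, against 75.9%, 67.0% and 97.3%. The w share thus no longer stood above the c share with these peaks. For members that no gene overlaps, the upper 50% and windows of 250 bp, the pooled log2 ratio of ends to middle was 0.63, 0.88 and 0.54 (0.73 as reported), that of lower to higher end -1.12, -1.15 and -1.35 for w (-1.25) and 0.65, 0.81 and 0.59 for c (0.75). The cause of these shifts was not tested, beyond fewer peaks being kept.

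No paired analysis was possible because the RNase H samples that share replicate numbers with DRIP were not analysed here. The limits are 2 replicates of 1 condition, unknown depth, strand lists without a replicate, no gene strand, and peaks without their level after RNase H. Counts of role classes rest on few genes.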

Other observations

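The embryo patterning genes, counted above as a list, ranged from DRIP peaks in both replicates to no peak at all. WOX9, a homeobox gene of the early embryo, had the highest replicate-mean fold among the 16, at 5.06 ± 0.30 (SD, n = 2). WOX2, of the apical cell lineage, followed at 4.56 and BDL, an Aux/IAA repressor, at 4.33. DCL1, which processes microRNA precursors, stood at 3.99 and the corepressor gene TPL at 3.77. YDA, a kinase of the zygote's division, reached 3.29, LEC1, a regulator of seed maturation, 2.82 and KN, the syntaxin of the cell plate, 2.78. GN, SSP, TOZ and WOX8 had a peak in replicate 1 only. MP and RKD4 had no DRIP peak, and KEU and FK had no peak in any list. Of the 8 with peaks in both replicates, 1 lay above a mean of 5, as did 12.5% of all genes with peaks in both replicates.

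Of the EMB genes, 5 pairs lay within 50 kb of each other. EMB2743 and EMB2729 lay 8415 bp apart and both lacked a DRIP peak. EMB1895, without a DRIP peak, and EMB1025, with peaks in both replicates, lay 8216 bp apart. EMB2744 and EMB2745, each with peaks in both replicates, lay 9232 bp apart. EMB1467, without a DRIP peak, lay 46533 bp from EMB2656, which had peaks in both replicates. EMB1135 and EMB2217, each with peaks in both replicates, lay 46976 bp apart. The pairs thus differed in their peaks, and no value for pairs of other genes is given.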
